A study of Mus musculus with 91 samples.

Results

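Integrins are cell-surface receptors made of 1 alpha and 1 beta chain, through which cells hold on to other cells and to the matrix around them. The genes of 9 chains were followed in mouse regulatory T cells (Tregs) given interleukin-2 (IL-2) signals, of 20378 genes with a row in any of 8 count tables. The 5 alpha chains were Itga4, Itga6, Itgae, Itgal and Itgav, and the 4 beta chains were Itgb1, Itgb2, Itgb7 and Itgb8. They were taken by symbol, each had a row in all 8 tables, and all 9 passed the filter on low counts in every table. The cells were Tregs sorted from the spleens of RFP-FoxP3 reporter mice on the C57/BL6 background, in which a red fluorescent protein marks Foxp3, and RNA was sequenced as total RNA after removal of ribosomal RNA.

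The treatments were mIL-2/CD25, a fusion protein (FP) of mouse IL-2 with the IL-2 receptor alpha chain, mIL-2 itself, and PBS as the control. The tables at 1.5 h and 16 h after injection held 4 FP, 4 IL-2 and 4 PBS libraries each. The 4 h table held 3 FP, 4 IL-2 and 3 PBS libraries with labels that agree, that at 72 h held 4 FP, 3 IL-2 and 3 PBS, and that at 168 h held 4 FP and 3 PBS. In the restimulation table, sorted at 1.5 h, 4 libraries came from mice given FP and then FP again (repeated FP), 3 from mice given PBS and then FP (single FP), and 3 from mice given PBS both times. A pair of further tables set 3 IL-2 libraries against 3 PBS libraries, one labelled in vitro at 1.5 h and one labelled high dose. The protocol text gives 20 ug of FP for every sample and names no dose of IL-2, and neither the dose nor the time of the high-dose injection is in the labels. The ages of the mice are not given either. The labels leave unsaid whether replicates came from different mice, and p-values therefore reflect the spread among the libraries at hand, which may be technical.

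Each alpha chain pairs with only a few beta chains, and the pair decides what is bound. Alpha4 with beta1 binds VCAM-1 and fibronectin, and with beta7 it binds MAdCAM-1 on gut vessels. AlphaE, which is CD103, binds E-cadherin on epithelium together with beta7 and is carried by effector Tregs. Alpha6 with beta1 binds laminins, alphaL with beta2 is LFA-1, which binds ICAM-1 and holds T cells to the cells they touch, and alphav with beta8 releases active TGF-beta from its latent form, a reaction through which Tregs restrain other T cells.

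Promoter sequence is shown for Itga4, Itgb8 and Itgb7, which had the largest called changes in the spleen among the 5 of the 9 chains with an entry in the RefSeq promoter table (assembly GRCm38.p6). Each line gives the 250 bases before the RefSeq start, 5′ to 3′ on the strand of the gene. These are Itga4 at chr2:79255176-79255425 on the plus strand, Itgb8 at chr12:119238277-119238526 on the minus strand and Itgb7 at chr15:102231936-102232185 on the minus strand. The Itgb8 window lies within the longer gene model of GENCODE M21, the annotation used here for coordinates. Capitals mark matches to any of 4 motifs searched on both strands.
Itga4: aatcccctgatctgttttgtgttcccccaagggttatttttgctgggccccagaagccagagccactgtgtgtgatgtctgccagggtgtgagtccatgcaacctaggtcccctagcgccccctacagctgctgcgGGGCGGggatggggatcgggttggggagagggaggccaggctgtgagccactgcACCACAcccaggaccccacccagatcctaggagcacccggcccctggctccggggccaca
Itgb8: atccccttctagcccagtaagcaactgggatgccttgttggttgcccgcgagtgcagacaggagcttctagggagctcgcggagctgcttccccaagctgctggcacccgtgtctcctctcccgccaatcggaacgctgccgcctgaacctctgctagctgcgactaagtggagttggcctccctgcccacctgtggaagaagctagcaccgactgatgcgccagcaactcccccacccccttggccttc
Itgb7: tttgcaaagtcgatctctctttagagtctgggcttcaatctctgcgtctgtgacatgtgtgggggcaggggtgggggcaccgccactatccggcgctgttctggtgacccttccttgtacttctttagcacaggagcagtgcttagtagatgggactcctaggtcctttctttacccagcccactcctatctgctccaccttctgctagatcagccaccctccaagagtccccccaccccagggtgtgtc
The motifs were TTCNNNGAA, bound by STAT5, the factor that IL-2 receptors activate, TGTGGT of RUNX factors, TGANTCA of AP-1 and GGGCGG of Sp and KLF factors. The Itga4 window held 1 RUNX and 1 Sp and KLF match, and the windows of Itgb8 and Itgb7 held none of the 4. Of 32851 promoters of the same table, 7.02% held the STAT letters, 14% the RUNX letters, 6.75% the AP-1 letters and 32.7% the Sp and KLF letters. A match is a description of letters only.

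The 73 libraries used held 12.2 to 46.1 M counted reads. All carried RNA of the Treg genes, with Foxp3 at 348 to 982 CPM (counts scaled to a common library size with TMM factors) and Il2ra at 381 to 2900 CPM. Libraries differed in the level of long against short transcripts, beyond treatment. A score was taken per library as the median log2 level of genes with at least 8 kb of exons minus that of genes with at most 3 kb, relative to the mean of its table, with the 9 chains left out. It ran from -0.56 to 0.46 at 4 h, -0.52 to 0.49 in the high-dose table and -0.54 to 0.27 in the restimulation table, where libraries of 1 group lay far apart. At 72 h it was lower in all FP libraries (-0.33 to -0.03) than in the IL-2 libraries (0.08 to 0.18) and the PBS libraries (0.08 to 0.15), which overlapped. At 16 h it was -0.091 to -0.035 in FP libraries, below the 0.059 to 0.093 of IL-2 libraries and within the -0.233 to 0.113 of PBS libraries. The summed level of 11 myeloid marker genes also set the FP libraries apart, at 31.4 to 124 CPM in FP libraries, 551 to 980 CPM in IL-2 libraries and 528 to 1320 CPM in PBS libraries at 72 h. At 168 h it was 35.0 to 58.2 CPM in FP libraries and 362 to 524 CPM in PBS libraries. No myeloid marker was at 0 in every library of a group. In the restimulation table the library labelled single FP replicate 1 stood apart from its group. Its Il2ra, a gene induced by IL-2 signals, was at 566 CPM, against 1785 and 1708 CPM in single FP replicates 2 and 3 and 569 to 639 CPM in PBS libraries, and its Foxp3 was at 568 CPM, against 852 and 804 CPM in those 2 and 521 to 605 CPM in PBS libraries. The part of either measure in the changes of the chains was not tested beyond the values given beside them. In bulk RNA, fewer cells with a transcript and less of it per cell cannot be told apart.

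The chains lie on 7 chromosomes (coordinates GRCm38). Itga6 (ENSMUSG00000027111) is at chr2:71745616-71858416, Itga4 (ENSMUSG00000027009) at chr2:79255426-79333123 and Itgav (ENSMUSG00000027087) at chr2:83724397-83806916. Itgae (ENSMUSG00000005947) is at chr11:73090583-73147446, Itgal (ENSMUSG00000030830) at chr7:127296260-127335138 and Itgb1 (ENSMUSG00000025809) at chr8:128685654-128733200. Itgb2 (ENSMUSG00000000290) is at chr10:77530252-77565708, Itgb7 (ENSMUSG00000001281) at chr15:102215995-102231944 and Itgb8 (ENSMUSG00000025321) at chr12:119158022-119238802. Genes on the opposite strand overlap 4 of them, and whether counting used the strand is not stated. Cerkl shares 1124 bp of exon with Itga4, which is 8.04% of the Itga4 exons, and had 1.30 to 13.3 CPM. Gm13684 shares 634 bp with Itgav, 5.90% of its exons. Haspin lies inside Itgae and shares no exon base with it, at 4.33 to 40.6 CPM. Gm17250 and Gm13739 overlap Itga6 without sharing an exon base and have no row in the tables.

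Tregs of PBS mice carried the beta chains of lymphocyte homing at the highest level. Per kilobase of exon, mean levels over the 7 spleen tables were 185 ± 13.3 CPM per kb for Itgb7, 153 ± 11.0 for Itgb2, 119 ± 10.8 for Itgal and 89.7 ± 15.3 for Itgb1 (SD over the tables, n = 7). The other chains were at 54.1 ± 12.7 CPM per kb for Itga4, 38.8 ± 1.83 for Itga6, 16.0 ± 1.63 for Itgae, 13.4 ± 1.71 for Itgav and 6.66 ± 1.73 for Itgb8. In this order Itgb7 and Itgb2, Itgal and Itgb1, Itga4 and Itga6, and Itgae and Itgav were neighbours whose ranges over the tables overlapped. The ranges of the other 4 neighbouring pairs did not overlap. Itga4 varied between tables from 31.8 to 69.0 CPM per kb, and Itga6 from 37.0 to 42.3. In the PBS libraries of the in vitro table, which was normalized on its own, Itgav was at 66.9 CPM per kb, Itga6 at 48.5 and Itgb8 at 18.3, above the range of their spleen tables. The other 6 chains were below theirs, as with Itgb7 at 100 CPM per kb.

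**Figure D1:**
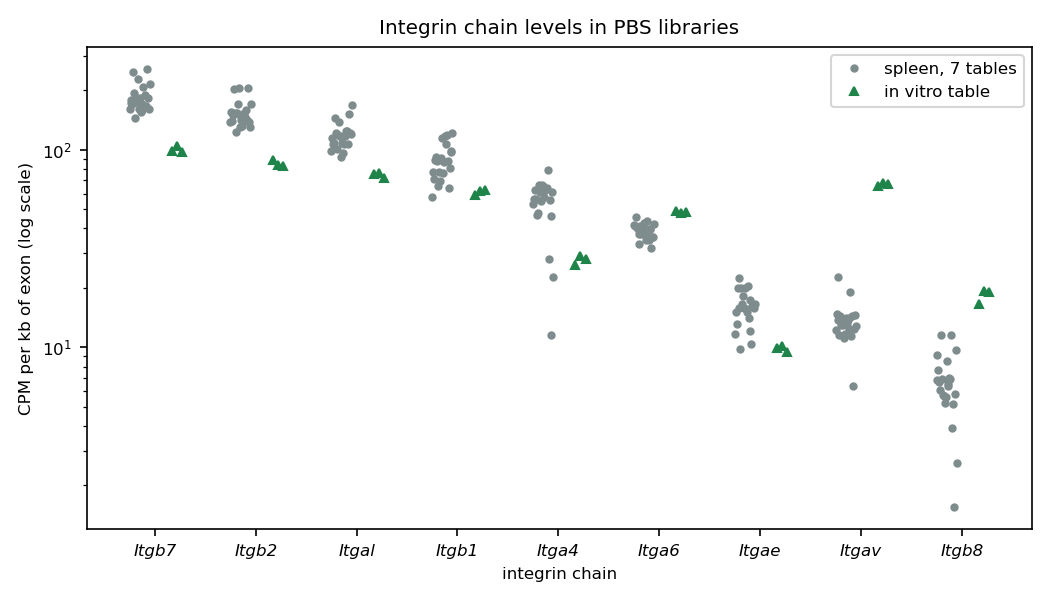
Levels of the 9 chains in PBS libraries, in CPM per kb of exon on a log axis. Gray dots are spleen libraries and green triangles the 3 in vitro libraries. Itgb7, Itgb2 and Itgal stand highest and Itgb8 lowest in the spleen, and Itgav, Itga6 and Itgb8 are higher in vitro than in any spleen table mean.

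Of 117 tests of a chain against the PBS group of its own table, over 13 comparisons, 15 were called, 8 higher and 7 lower, at an adjusted p below 0.01 (edgeR's quasi-likelihood F test, Benjamini-Hochberg over all genes of the table). Itga6 was called higher in 5 comparisons and never lower, and Itga4 was called lower in 3 and never higher. Itgb8 was called lower in 2 and higher in 1, Itgae once each way, Itgb7 higher in 1 and Itgav lower in 1. Itgal, Itgb1 and Itgb2 were called in none of the 13. Comparisons within a table share their PBS libraries.

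Read against all genes of each table, the calls were as follows. At 1.5 h, 2 of the 9 chains passed after FP, when 6.67% of all genes tested did, and 2 after IL-2, when 14.2% did. At 16 h FP changed 4 of the 9 chains and 28.8% of all genes, and at 72 h again 4 of 9 and 30.4%. In vitro IL-2 changed 3 of the 9 and 14% of all genes. At 4 h edgeR called none of the 9 after FP (0.913% of all genes), with 3 at an unadjusted p below 0.05 and 1 called by DESeq2. After IL-2 at 4 h it called none either (0.652% of all genes), with 2 below 0.05 unadjusted and 1 by DESeq2. IL-2 changed none at 16 h by edgeR (0.35% of all genes), 3 being below 0.05 unadjusted and 0 called by DESeq2, and none at 72 h (0% of all genes), with 0 below 0.05 and 0 by DESeq2. At 168 h after FP edgeR called none (1.21% of all genes), 3 were below 0.05 unadjusted, and DESeq2 called 2. Among all genes at 4 h, 3108 of 17636 after FP and 2474 after IL-2 were below 0.05 unadjusted in edgeR. After IL-2 2021 of 17453 were at 16 h and 82 of 18624 at 72 h, and after FP 2582 of 17411 were at 168 h. Counts over all genes by DESeq2 are given with the processing where they moved by over 1.5 times. By direction, 4.39% of all genes rose and 2.28% fell after FP at 1.5 h, and 8.39% rose and 5.79% fell after IL-2. After FP 14.4% rose and 14.3% fell at 16 h, and 17.3% rose and 13.1% fell at 72 h, while in vitro 7.41% rose and 6.54% fell with IL-2. Whether the chains differ from genes in general in these counts was not tested.

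**Figure D2:**
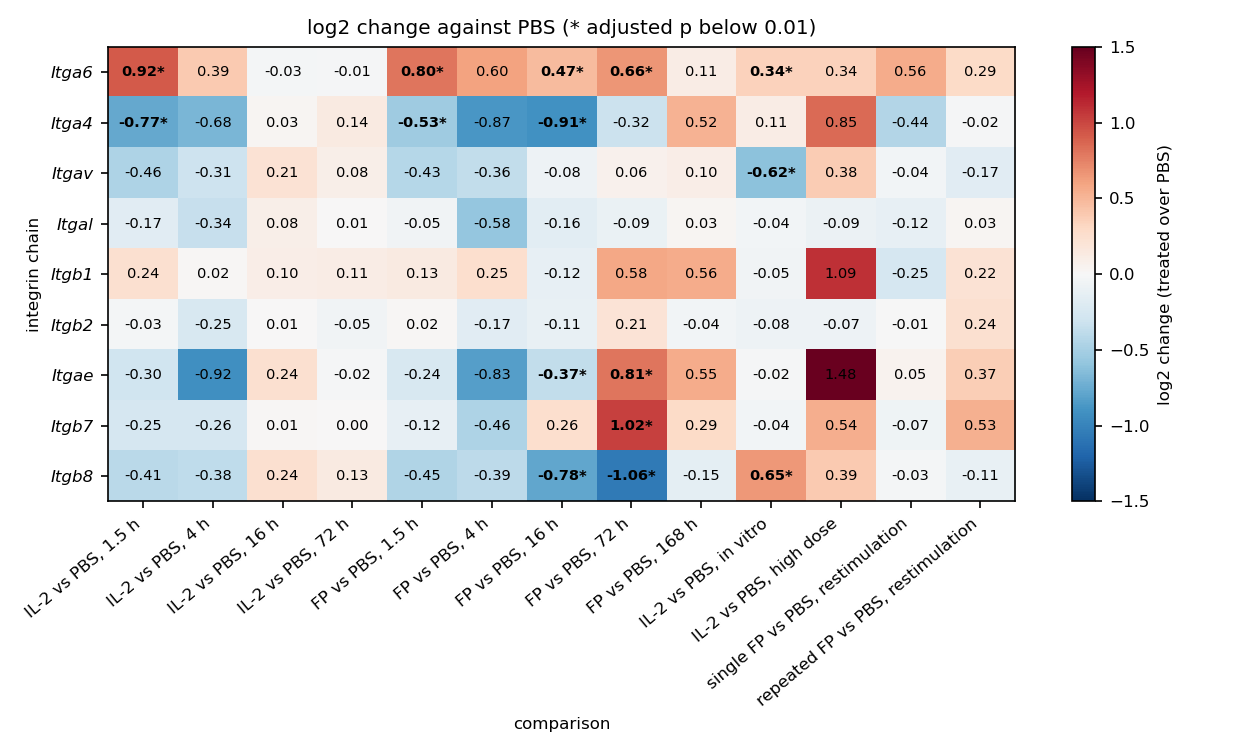
Change of each chain against PBS in the 13 comparisons, as log2 change (color and printed number). A star marks an adjusted p below 0.01. Itga6 is red in the FP columns up to 72 h, Itga4 blue in those up to 16 h, and Itgal and Itgb2 carry no star.

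Itga6, the laminin-binding alpha chain, was higher within 1.5 h of either agent. It had 605, 816, 714 and 535 CPM in the FP libraries, 743.5, 820, 676 and 651 CPM in the IL-2 libraries and 374, 373, 414 and 367 CPM in the PBS libraries. Every treated library lay above every PBS library. The log2 change was 0.80 ± 0.12 after FP (SE, adjusted p = 0.000464) and 0.92 ± 0.12 after IL-2 (adjusted p = 7.45e-05), and FP and IL-2 did not differ by the test (-0.12, 95% interval -0.37 to 0.14, adjusted p = 0.971).

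At 4 h Itga6 averaged 506 ± 81.8 CPM in 3 FP libraries, 438 ± 75.6 CPM in 4 IL-2 libraries and 334 ± 28.9 CPM in 3 PBS libraries (SD). The groups did not overlap with PBS, but neither change passed the test (FP 0.60 ± 0.20, adjusted p = 0.135, and IL-2 0.39 ± 0.19, adjusted p = 0.395). At 16 h it was 481, 484, 526 and 495 CPM after FP, 354.5, 355.5, 352 and 342 CPM after IL-2 and 372, 340, 369 and 350 CPM after PBS. FP libraries were then above all others, while IL-2 libraries lay among the PBS libraries. Against PBS the log2 change was 0.47 ± 0.06 after FP (adjusted p = 1.03e-05) and -0.03 ± 0.06 after IL-2 (adjusted p = 0.900).

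At 72 h Itga6 was still higher after FP, at 574, 599, 597 and 418.5 CPM, against 383, 352 and 293 CPM after IL-2 and 384, 340 and 315 CPM after PBS. FP replicate 4 was the lowest of its group and still above every other library. The log2 change over PBS was 0.66 ± 0.14 (adjusted p = 0.00231) and that over IL-2 0.67 ± 0.14 (adjusted p = 0.00200). The call against PBS was lost without PBS replicate 2 or 3 (adjusted p = 0.0150 and 0.0190), and that against IL-2 without IL-2 replicate 2 or 3 (adjusted p = 0.0113 and 0.0168). With the long-transcript score as a covariate the log2 change was 0.16 over PBS (adjusted p = 0.598) and 0.15 over IL-2 (adjusted p = 0.671). All FP libraries at 72 h had lower scores than all others, so that fit can hardly tell FP and the score apart. By 168 h the FP and PBS libraries overlapped, at 348 to 426 CPM after FP and 314.5 to 393 CPM after PBS (0.11 ± 0.11, adjusted p = 0.692).

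**Figure D3:**
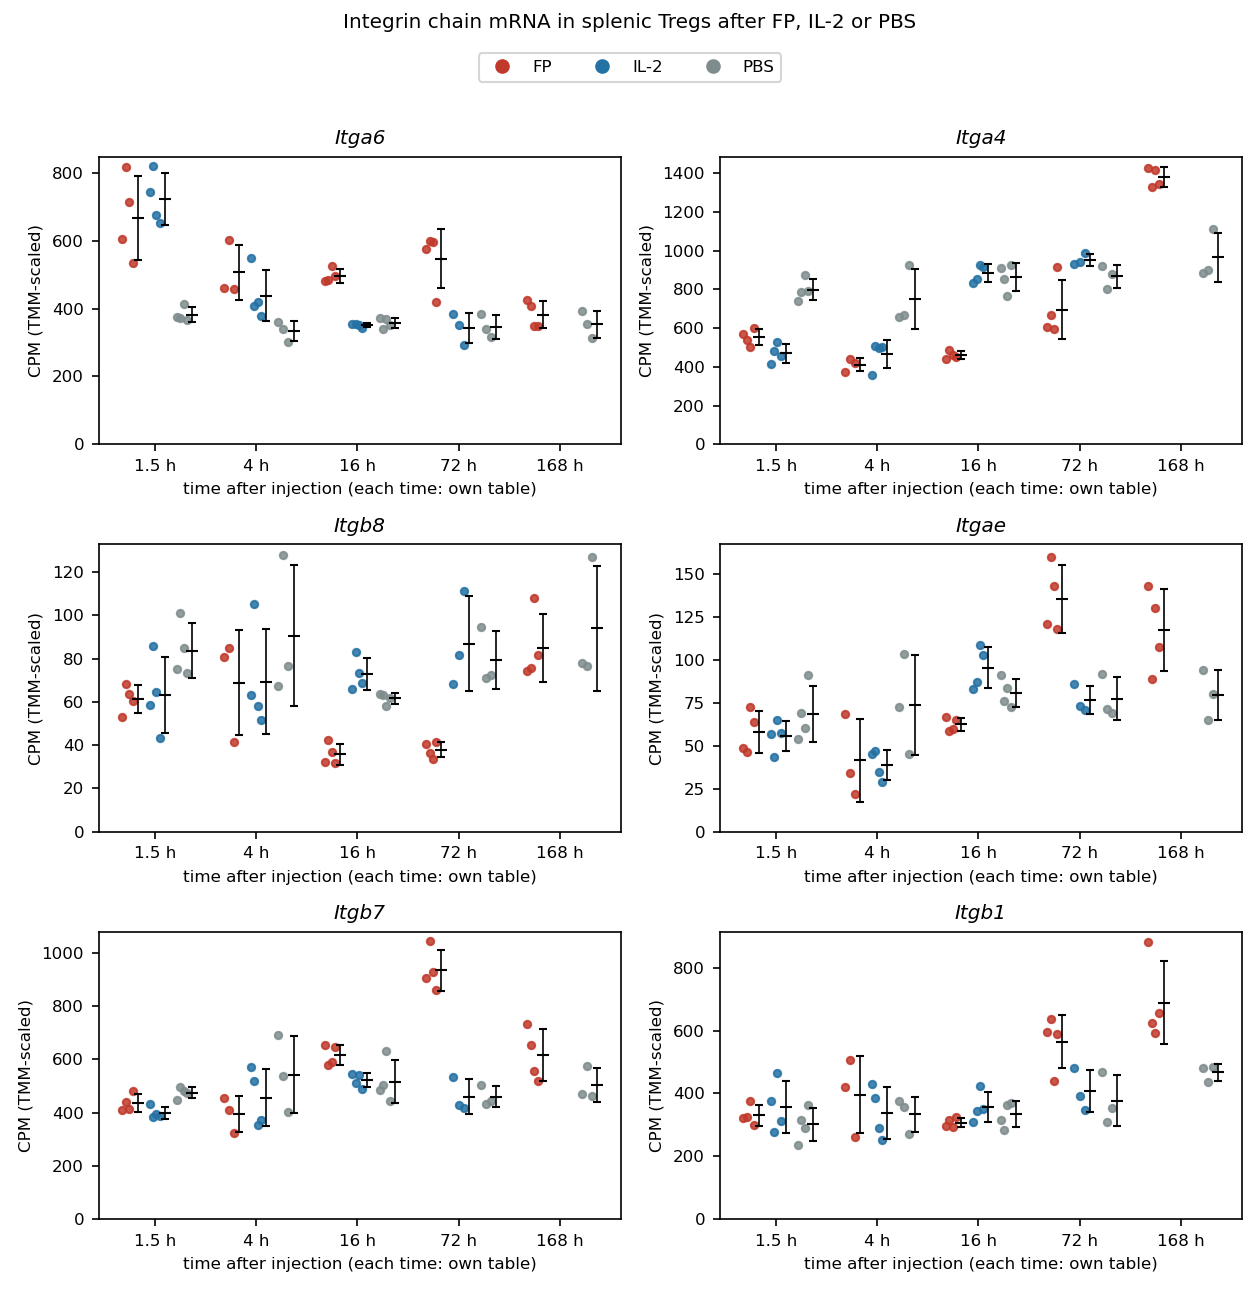
Levels of 6 chains by time after injection, in TMM-scaled CPM from 0. At each time FP, IL-2 and PBS libraries stand left to right, dots are libraries and bars mean ± SD (there is no IL-2 group at 168 h). Itga6 is above PBS after FP up to 72 h, Itga4 below it up to 16 h, and Itgae and Itgb7 rise above it after FP at 72 h.

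Itga4, the alpha chain of the VCAM-1 and MAdCAM-1 receptors, moved the other way. At 1.5 h it had 569, 540, 504 and 600 CPM after FP, 413, 480.5, 528 and 454 CPM after IL-2 and 741, 786, 873 and 792.5 CPM after PBS. All treated libraries lay below all PBS libraries. The log2 change was -0.53 ± 0.09 after FP (adjusted p = 0.00131) and -0.77 ± 0.09 after IL-2 (adjusted p = 3.02e-05). The difference of FP from IL-2 was 0.24 ± 0.09 and did not pass (unadjusted p = 0.0188, adjusted p = 0.808). Cerkl, which overlaps it, also fell, by 0.78 ± 0.18 after FP (adjusted p = 0.00988) and by 1.12 ± 0.18 after IL-2 (adjusted p = 0.000455) on the log2 scale, at a small fraction of the Itga4 level.

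At 4 h Itga4 was at 374.5, 439 and 418 CPM after FP, at 359, 505, 498 and 504 CPM after IL-2 and at 658, 666 and 926 CPM after PBS. No treated library reached the lowest PBS library. The log2 change was -0.87 ± 0.21 after FP (adjusted p = 0.0497) and -0.68 ± 0.19 after IL-2 (adjusted p = 0.113). At 4 h the FP and the IL-2 libraries each deviated together with the PBS libraries of their number. FP and IL-2 libraries of one number did not all do so. With the number as a block the FP change was -0.86 with an adjusted p of 0.00747. With the long-transcript score as a covariate both passed, at -0.72 after FP (adjusted p = 0.00214) and -0.68 after IL-2 (adjusted p = 0.00124).

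At 16 h the groups divided. Itga4 had 442, 488, 460 and 450 CPM after FP, 835, 855, 926 and 917 CPM after IL-2 and 909, 854, 766 and 928 CPM after PBS. FP libraries were all below 500 CPM while IL-2 libraries lay among those of PBS. The log2 change over PBS was -0.91 ± 0.08 after FP (adjusted p = 7.75e-08) and 0.03 ± 0.07 after IL-2 (adjusted p = 0.905), and FP differed from IL-2 by -0.94 ± 0.08 (adjusted p = 5.43e-08).

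At 72 h Itga4 was no longer called against PBS. It had 606, 667, 593.5 and 917 CPM after FP, 933, 939 and 989 CPM after IL-2 and 918, 804 and 880 CPM after PBS. FP replicates 1 to 3 lay below every IL-2 and PBS library, and FP replicate 4 lay among the PBS libraries. The change over PBS was -0.32 ± 0.14 (adjusted p = 0.0814), and without FP replicate 4 it passed at -0.47 (adjusted p = 0.00185). The change over IL-2 was -0.45 ± 0.14 (adjusted p = 0.0182), and -0.61 without FP replicate 4 (adjusted p = 0.000317). FP replicate 4 also had the highest long-transcript score of the FP libraries, at -0.033 against -0.331 to -0.124 in the others. With the score as a covariate, in a fit that could hardly tell it from FP, Itga4 passed neither over PBS nor over IL-2. FP and IL-2 libraries of one number deviated together only weakly at 72 h (correlations of 0.15 to 0.23). With the number as a block the change over IL-2 was -0.62 (adjusted p = 9.30e-05). At 168 h Itga4 stood higher after FP, with 1427, 1328, 1417 and 1344 CPM against 884, 900 and 1109 CPM after PBS. The libraries did not overlap, and the log2 change of 0.52 ± 0.11 did not pass (adjusted p = 0.0337). It passed with DESeq2 (0.52, adjusted p = 9.85e-05) and with the score as a covariate (0.58, adjusted p = 0.00995).

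The change of the Itga4 response with time was tested directly. The FP effect at 72 h minus that at 16 h was 0.58 ± 0.15 (adjusted p = 0.00617), and that at 168 h minus that at 72 h was 0.84 ± 0.18 (adjusted p = 0.00421). The FP effect at 16 h minus that at 1.5 h was -0.36 ± 0.12 and did not pass (adjusted p = 0.0539). Of the 9 chains, 3 passed between 16 and 72 h, all as higher effects (15.6% of all genes, 8.6% in that direction). Between 72 and 168 h 1 passed, as higher (8.6% of all genes, 2.2% in that direction, and 3 chains by DESeq2). Between 1.5 and 16 h edgeR called none (4.98% of all genes) and DESeq2 0. At an unadjusted p below 0.05 by edgeR there were 4 chains, beside 3859 of 17580 genes. The 72 h minus 16 h call of Itga4 was lost on leaving out any 1 of the 16 h FP libraries, 16 h PBS replicate 1 or 4, 72 h FP replicate 2 or 72 h PBS replicate 2 or 3 (0.52 to 0.60, adjusted p = 0.0119 to 0.0264). The 168 h minus 72 h call was lost without 168 h PBS replicate 2 or 72 h PBS replicate 1 or 3 (0.79 to 0.85, adjusted p = 0.0102 to 0.0136).

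Itgb7, the beta chain of the gut-homing receptor and the partner of CD103, rose late. It was at 904, 1043, 926 and 861 CPM in FP libraries at 72 h, at 534, 429 and 417 CPM in IL-2 libraries and at 505, 432 and 442 CPM in PBS libraries. The lowest FP library was above the highest of the others. The log2 change was 1.02 ± 0.11 over PBS (adjusted p = 2.55e-05) and 1.02 ± 0.11 over IL-2 (adjusted p = 2.69e-05). With the long-transcript score as a covariate it was 0.73 over PBS (adjusted p = 0.00828) and 0.71 over IL-2 (adjusted p = 0.0142). FP and the score could hardly be told apart in that fit.

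Earlier, Itgb7 was not called. At 1.5 h it averaged 436 ± 33.5 CPM after FP, 399 ± 23.3 CPM after IL-2 and 474 ± 20.3 CPM after PBS (SD, n = 4 each), with log2 changes of -0.12 ± 0.08 after FP (adjusted p = 0.338) and -0.25 ± 0.08 after IL-2 (adjusted p = 0.0257). At 4 h it averaged 395 ± 67.3 CPM in 3 FP, 455 ± 107 CPM in 4 IL-2 and 543 ± 145 CPM in 3 PBS libraries (SD), which overlapped. With the long-transcript score as a covariate the FP change at 4 h was -0.65 and passed (adjusted p = 0.00546). At 16 h it averaged 616 ± 37.9 CPM after FP, 521 ± 26.7 CPM after IL-2 and 516 ± 81.0 CPM after PBS (SD, n = 4 each), a change over PBS of 0.26 ± 0.09 after FP (adjusted p = 0.0379). Without PBS replicate 3, the highest of its group at 632 CPM, it was 0.42 and passed (adjusted p = 0.000146). The FP effect at 72 h was larger than at 16 h by 0.76 ± 0.15 (adjusted p = 0.000645). At 168 h it averaged 615 ± 96.9 CPM in 4 FP libraries and 503 ± 62.4 CPM in 3 PBS libraries (SD), which overlapped, and the effect was lower than at 72 h by 0.73 on the log2 scale without passing (difference -0.73 ± 0.18, adjusted p = 0.0100, just above the threshold). It passed without 168 h FP replicate 1 (-0.83, adjusted p = 0.00277) or 72 h FP replicate 4 (-0.75, adjusted p = 0.00780).

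Itgae, the gene of the alpha chain CD103, was lower after FP at 16 h and higher at 72 h. At 4 h it was at 68.3, 34.1 and 22.2 CPM after FP, at 45.5, 46.8, 34.5 and 28.9 CPM after IL-2 and at 72.6, 103 and 45.2 CPM after PBS. Both treated groups overlapped with PBS, and neither change passed (FP -0.83 ± 0.41, adjusted p = 0.336, and IL-2 -0.92 ± 0.38, adjusted p = 0.302). With a tag in the deposited column names as a block, a setting chosen after the data were seen, both passed, at -0.95 after FP (adjusted p = 0.000410) and -1.05 after IL-2 (adjusted p = 9.08e-05). With the score as a covariate FP passed (-1.19, adjusted p = 0.00769) and IL-2 did not (-0.90, adjusted p = 0.0177). By the labels, of the FP libraries compared only replicate 1 shared a lane with the PBS and IL-2 libraries. With lane as a covariate the FP change was -0.11, a value that rests on that library alone and cannot separate FP from lane in the others.

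At 16 h Itgae was at 66.5, 58.3, 59.9 and 64.9 CPM after FP, at 83.2, 87.3, 109 and 103 CPM after IL-2 and at 91.2, 76.2, 83.3 and 72.4 CPM after PBS. All FP libraries were below all others. In log2 terms the change was -0.37 ± 0.09 over PBS (adjusted p = 0.00430) and -0.61 ± 0.09 over IL-2 (adjusted p = 5.41e-05). The call over PBS was lost without FP replicate 2 or 3, without PBS replicate 1 or 3, and without the low-count filter (adjusted p = 0.0119 to 0.0265).

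At 72 h Itgae stood at 121, 160, 143 and 118 CPM after FP, against 85.8, 72.9 and 70.9 CPM after IL-2 and 91.8, 71.5 and 69.0 CPM after PBS. FP libraries were now all above the others. On the log2 scale the change was 0.81 ± 0.13 over PBS (adjusted p = 0.000476) and 0.82 ± 0.13 over IL-2 (adjusted p = 0.000412). With the long-transcript score as a covariate, in a fit that could hardly tell it from FP, the change over PBS was 0.45 (adjusted p = 0.144). Haspin, inside the gene on the other strand, was also higher over PBS, by 1.33 ± 0.13 (adjusted p = 7.87e-06), and its part in the Itgae count was not tested. The FP effect on Itgae at 72 h exceeded that at 16 h by 1.17 ± 0.17 (adjusted p = 3.20e-05). At 168 h it was at 143, 88.8, 130 and 107 CPM after FP and 94.1, 64.9 and 79.9 CPM after PBS, which overlapped (0.55 ± 0.17, adjusted p = 0.149).

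Itgb8, the chain that with alphav releases active TGF-beta, fell after FP at both middle times. At 16 h it was at 32.2, 42.4, 36.8 and 31.5 CPM after FP, at 66.1, 82.9, 73.2 and 68.8 CPM after IL-2 and at 63.5, 63.0, 58.2 and 61.7 CPM after PBS. FP libraries were lower than all PBS libraries, and IL-2 libraries were all higher than them. The log2 change over PBS was -0.78 ± 0.10 after FP (adjusted p = 5.79e-06) and 0.24 ± 0.09 after IL-2, which did not pass (adjusted p = 0.336). FP differed from IL-2 by -1.03 ± 0.10 (adjusted p = 2.78e-07).

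At 72 h Itgb8 had 40.7, 36.5, 33.5 and 41.2 CPM after FP, 68.2, 81.5 and 111 CPM after IL-2 and 94.6, 70.9 and 72.5 CPM after PBS. FP libraries were again below all others. In log2 terms the change was -1.06 ± 0.16 over PBS (adjusted p = 0.000201) and -1.19 ± 0.16 over IL-2 (adjusted p = 8.81e-05). With the long-transcript score as a covariate the change was -0.93 over PBS (adjusted p = 0.0414) and -1.05 over IL-2 (adjusted p = 0.0370). Here too FP and the score could hardly be told apart. At 168 h the groups overlapped, at 74.4 to 108 CPM after FP and 76.8 to 127 CPM after PBS (-0.15 ± 0.19, adjusted p = 0.767). At 1.5 h it averaged 61.3 ± 6.30 CPM after FP, 63.0 ± 17.6 CPM after IL-2 and 83.7 ± 12.5 CPM after PBS (SD, n = 4 each), and neither change passed (FP -0.45 ± 0.17, adjusted p = 0.0926, and IL-2 -0.41 ± 0.17, adjusted p = 0.0893). Without IL-2 replicate 2 the IL-2 change was -0.59 and passed (adjusted p = 0.00950).

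Itgav, the partner of Itgb8, was not called by edgeR against PBS in any spleen table (in the high-dose table it was with the long-transcript score as a covariate, as given below). At 16 h it averaged 125 ± 4.70 CPM after FP, 153 ± 8.67 CPM after IL-2 and 132 ± 10.9 CPM after PBS (SD, n = 4 each). FP libraries lay below all IL-2 libraries, and this difference was called (-0.29 ± 0.07, adjusted p = 0.00269). It was lost with the long-transcript score as a covariate (-0.18, adjusted p = 0.0609) and without FP replicate 3 or IL-2 replicate 2 or 3 (-0.26 to -0.22, adjusted p = 0.0160 to 0.0258). At 72 h Itgav averaged 153 ± 6.09 CPM after FP, 155 ± 15.9 CPM after IL-2 and 146 ± 4.81 CPM after PBS (SD), with a change over PBS of 0.06 after FP (95% interval -0.12 to 0.24).

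Itgb1, the common partner of alpha4 and alpha6, did not pass in any comparison with PBS. At 72 h it was at 594, 637, 441 and 588 CPM after FP, at 482, 392.4 and 348.5 CPM after IL-2 and at 468, 310.5 and 352 CPM after PBS. FP replicate 3 lay below the highest PBS library and the other FP libraries above it. The change over PBS was 0.58 ± 0.17 (adjusted p = 0.0131), and it passed with DESeq2 (0.60, adjusted p = 0.00373), without FP replicate 3 (0.69, adjusted p = 0.00503) and without PBS replicate 1 (0.77, adjusted p = 0.00377). That over IL-2 was 0.47 ± 0.17 (adjusted p = 0.0352), and with the number as a block it was 0.46 and passed (adjusted p = 0.00614). At 168 h it was at 882, 623, 593.5 and 656 CPM after FP, against 482, 436 and 485 CPM after PBS, with no overlap (0.56 ± 0.14, adjusted p = 0.0721), and DESeq2 called it (0.57, adjusted p = 0.00429).

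Itgal and Itgb2, the chains of LFA-1, were not called by edgeR in any of the comparisons. Over the 13 comparisons with PBS the log2 change of Itgal lay between -0.58 and 0.08, and that of Itgb2 between -0.25 and 0.24. The lowest log2 change of Itgal was that at 4 h after FP, where it was at 569, 554 and 503.5 CPM in FP libraries, at 743, 737, 541 and 531 CPM in IL-2 libraries and at 955, 802 and 667 CPM in PBS libraries. FP libraries lay below all PBS libraries, and the change of -0.58 ± 0.22 did not pass (adjusted p = 0.189) but did with the score as a covariate (-0.69, adjusted p = 0.00294). At 72 h after FP Itgal averaged 657 ± 41.3 CPM in FP libraries, 705 ± 25.6 CPM in IL-2 libraries and 702 ± 62.2 CPM in PBS libraries (SD). Itgb2 averaged 494 ± 62.2 CPM in FP libraries, 414 ± 34.6 CPM in IL-2 libraries and 428 ± 22.1 CPM in PBS libraries (SD). The 95% intervals of their changes over PBS were -0.29 to 0.10 for Itgal and -0.03 to 0.44 for Itgb2. A change of 2-fold was outside these intervals. At 16 h Itgal changed by -0.16 ± 0.09 after FP (adjusted p = 0.195), and without PBS replicate 4 by -0.26, which passed (adjusted p = 0.00607). FP against IL-2 at 16 h passed with only those 2 groups in the fit (-0.20, adjusted p = 0.00109).

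The agents themselves were compared within tables. Of the 9 chains, FP and IL-2 differed in 5 at 16 h (31.8% of all genes) and in 4 at 72 h (30.8%). Of all genes, 16.8% were higher and 14.9% lower after FP than after IL-2 at 16 h, and 17.9% higher and 12.9% lower at 72 h. With only those 2 groups in the fit Itgal and Itgb7 (0.28, adjusted p = 0.000416) joined at 16 h, making 7. The share of all genes called in that fit is not given, so the 7 cannot be set against it. At 16 h the 5 were Itga6, which was higher after FP (0.50 ± 0.06, adjusted p = 5.12e-06), and Itga4, Itgae, Itgav and Itgb8, which were lower. At 72 h Itga6, Itgae and Itgb7 were higher and Itgb8 lower after FP. At 1.5 h edgeR called none of the 9 (0% of all genes), with 1 chain and 970 of 16643 genes at an unadjusted p below 0.05, and DESeq2 called 0 chains. At 4 h edgeR called none either (0%), with 0 chains and 482 of 17636 genes below 0.05, and DESeq2 called 0 chains. The largest absolute difference at 1.5 h was that of Itga4, given above. Labels give the FP dose alone, so equal doses of the agents are not established.

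In vitro, where both groups were in culture, replicates were close (coefficient of biological variation 4.48%). Itgb8 was at 326, 315 and 309 CPM with IL-2 and at 184, 213 and 211 CPM with PBS, and so rose without overlap (0.65 ± 0.04, adjusted p = 4.13e-12). Itgav moved against its partner, with 464, 462 and 481 CPM with IL-2 against 704, 729 and 723 CPM with PBS (-0.62 ± 0.04, adjusted p = 9.58e-14). Itga6 was higher, at 564.5, 548 and 554 CPM with IL-2 and 441, 434 and 439 CPM with PBS (0.34 ± 0.03, adjusted p = 7.77e-09). Itga4 was at 421, 419 and 412.5 CPM with IL-2 and 364, 406 and 391 CPM with PBS, and its change of 0.11 ± 0.04 did not pass (adjusted p = 0.0462).

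Set against IL-2 at 1.5 h in the animal, 2 of the 9 chains responded differently in vitro, both with a higher effect (4.96% of all genes, 2.13% in that direction). The Itga4 effect in vitro minus that in the animal was 0.87 ± 0.12 (adjusted p = 8.78e-05), and that of Itgb8 was 1.05 ± 0.22 (adjusted p = 0.00366). The Itgb8 call was lost without in vitro IL-2 replicate 1 or 2 or in vitro PBS replicate 1 (0.99 to 1.05, adjusted p = 0.0107 to 0.0155). For Itga6 the difference was -0.58 ± 0.15 and did not pass (adjusted p = 0.0204). These tables were separate experiments, so culture and table cannot be told apart.

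**Figure D4:**
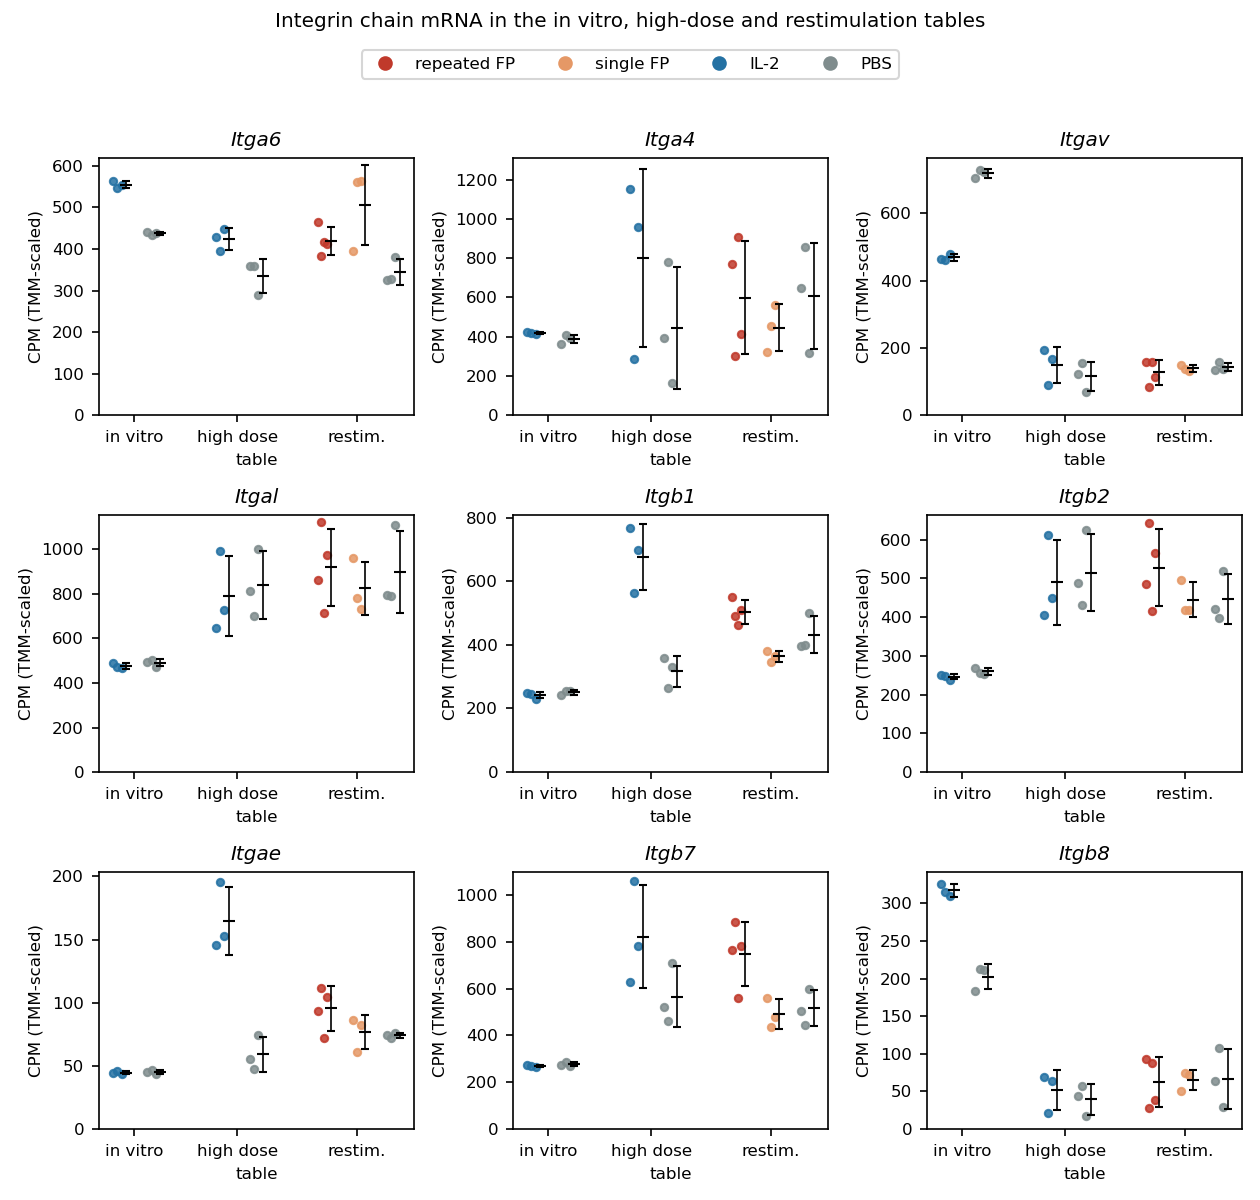
Levels of the 9 chains, in TMM-scaled CPM from 0, in the in vitro, high-dose and restimulation tables. The treated groups stand left of PBS, dots are libraries and bars mean ± SD. In vitro Itgb8 and Itga6 are above PBS and Itgav below it, and Itga4 is widely spread in the high-dose and restimulation tables.

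High-dose IL-2 gave no call by edgeR among the chains (0% of all genes). At an unadjusted p below 0.05 there were 2 chains, beside 2743 of the 16668 genes tested. DESeq2 called 2 chains, and its count over all genes is given with the processing. The 2 chains called by DESeq2 were Itgae and Itgb1. Itgae had 146, 196 and 153 CPM with IL-2, against 55.5, 47.6 and 74.5 CPM with PBS, a change of 1.48 ± 0.23 (adjusted p = 0.0290). Itgb1 had 769, 564 and 697 CPM with IL-2, against 357, 263 and 331 CPM with PBS, a change of 1.09 ± 0.20 (adjusted p = 0.0517). Neither gene overlapped between the groups, nor did Itga6, at 395 to 449 CPM with IL-2 and 288 to 358 CPM with PBS. Genes without overlap were not counted over all genes. Itga4 was spread over 1152, 287.5 and 960 CPM with IL-2 and 391, 780 and 161 CPM with PBS, and the 95% interval of its change was -0.77 to 2.47.

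In that table the low Itga4 libraries were also the ones with low scores of long transcripts, at -0.52 in IL-2 replicate 2 and -0.39 in PBS replicate 3. With the score as a covariate 5 of the 9 chains were called higher, when 2616 of 16668 genes tested were called in either direction. The 5 chains were Itga4 at 1.12 (adjusted p = 0.000146), Itgae at 1.44 (adjusted p = 1.50e-05), Itgb1 at 1.10 (adjusted p = 0.000917), Itgav at 0.50 (adjusted p = 0.00692) and Itgb7 at 0.46 (adjusted p = 0.00977). That covariate was chosen after the data were seen. The summed myeloid markers were at 61.6 to 91.9 CPM with IL-2 and 121 to 141 CPM with PBS, and their part was not tested.

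**Figure D5:**
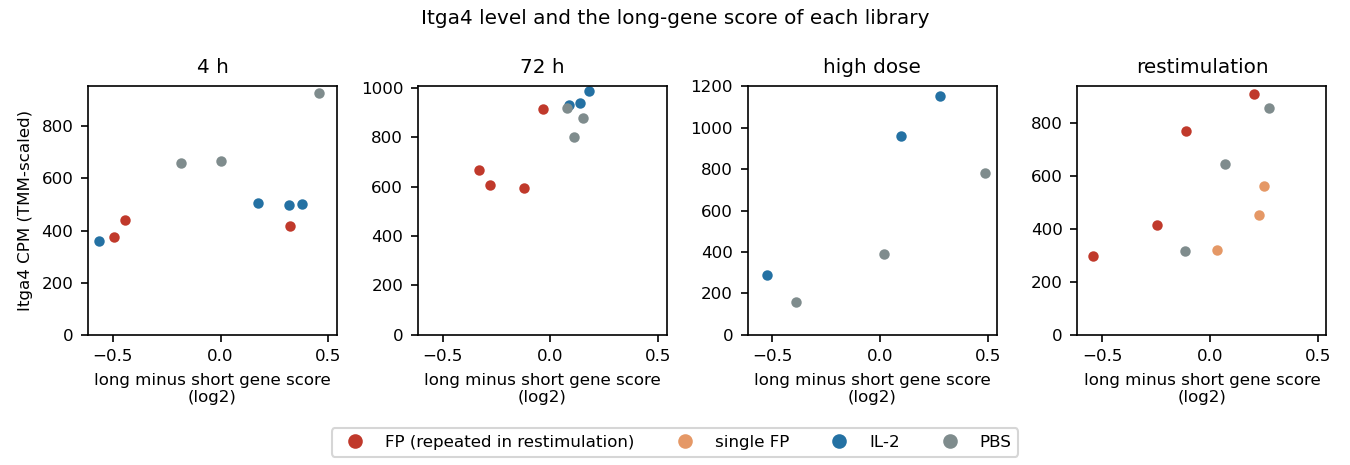
Itga4 level, in TMM-scaled CPM, against the score of long minus short transcripts (log2) in the 4 h, 72 h, high-dose and restimulation tables. Each point is a library, colored by group. In the high-dose and restimulation tables libraries of 1 group with a lower score hold less Itga4.

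In the restimulation table edgeR called no chain after repeated FP (0.629% of all genes, 1 chain at an unadjusted p below 0.05 and 0 by DESeq2). It called none after single FP (0.0111%, 1 chain below 0.05 and 0 by DESeq2) and none between them (0.585%, 2 chains below 0.05 and 0 by DESeq2). Of 17953 genes tested, 3900 after repeated FP, 1608 after single FP and 3540 between them were below 0.05 unadjusted. Itga6 averaged 420 ± 34.2 CPM after repeated FP, 506 ± 96.9 CPM after single FP and 344 ± 32.1 CPM after PBS (SD, n = 4, 3 and 3), and all FP libraries lay above all PBS libraries. The changes over PBS were 0.29 ± 0.15 after repeated FP (adjusted p = 0.289) and 0.56 ± 0.16 after single FP (adjusted p = 0.216). The library labelled single FP replicate 1, with Il2ra at the PBS level, had 394.5 CPM of Itga6, against 561 and 564 CPM in single FP replicates 2 and 3. Without it the change of Itga6 was 0.71 (adjusted p = 0.0510), and edgeR called 31 of all genes after single FP in place of 2 and 19 between repeated and single FP in place of 105. The difference of Itga4 from PBS after single FP was -0.44 (95% interval -1.44 to 0.56), and -0.26 without that library (adjusted p = 0.976). Single FP sorted at 1.5 h is the same schedule as FP in the 1.5 h table apart from the first PBS, and there the change of Itga6 was 0.80 and that of Itga4 -0.53.

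After repeated FP, Itgb7 was at 764, 885, 560 and 784 CPM, against 562, 437 and 479 CPM after single FP and 505, 446 and 600 CPM after PBS. FP replicate 3 lay within the range of both other groups. The change was 0.53 ± 0.18 over PBS (adjusted p = 0.117) and 0.60 ± 0.18 over single FP (adjusted p = 0.105), or 0.71 over single FP without its replicate 1 (adjusted p = 0.119). Itgb1 was at 551, 491, 461 and 509 CPM after repeated FP and 382, 347 and 365 CPM after single FP, with no overlap (0.47 ± 0.12, adjusted p = 0.0778, and 0.50 without single FP replicate 1, adjusted p = 0.121). Itga4 ran from 299 to 908.5 CPM after repeated FP, from 322 to 563 CPM after single FP and from 317 to 856 CPM after PBS.

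Other integrin chains were measured too. After FP, 4 of the 14 tested fell at 16 h and none rose, with a median of -0.34 beside -0.05 over all genes, 28.8% of which were called and 14.3% lower. They were Itgb3 (-0.85 ± 0.10), Itga7 (-0.94 ± 0.15), Itgb5 (-0.92 ± 0.24) and Itga2b (-0.81 ± 0.22). At 72 h 3 of 15 rose, including Itga2, a collagen receptor chain (1.61 ± 0.24), and 4 fell, including Itgad (-5.42 ± 0.55), Itga9 (-3.84 ± 0.42) and Itgax (-2.32 ± 0.36). Of all genes 17.3% rose and 13.1% fell at that time. Itgad and Itgax are known as chains of macrophages and dendritic cells, and the myeloid markers fell with them, 11 of 11 being called lower with a median log2 change of -3.54. At 168 h, when 1.21% of all genes were called, 3 of 14 were lower and 1 higher. Itgad (-4.27 ± 0.28), Itga9 (-2.72 ± 0.22) and Itgax (-2.30 ± 0.36) were again lower and Itga7 higher (1.30 ± 0.18). Beside them, 9 of 11 myeloid markers were called lower. The part of myeloid RNA in these changes was not tested.

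Genes of the proteins that switch integrins on from inside the cell were counted in the same way. At 1.5 h after FP 2 of 15 activators rose, 1 fell and 12 did not pass, when 6.67% of all genes were called, and after IL-2 2 rose and 5 fell, when 14.2% were. Those that rose were Cyth1 (0.90 ± 0.10 after FP and 1.04 ± 0.10 after IL-2), which binds the beta2 tail, and Rasgrp1 (0.79 ± 0.09 after FP and 0.82 ± 0.09 after IL-2), an exchange factor for Ras family proteins. Stk4, the kinase Mst1, fell after both (-0.39 ± 0.07 after FP and -0.47 ± 0.07 after IL-2). At 16 h after FP 1 rose and 5 fell, beside 14.4% and 14.3% of all genes, with Fyb, the adaptor ADAP, at -0.71 ± 0.08 and Stk4 at -0.44 ± 0.06. At 72 h 7 rose and 1 fell, beside 17.3% and 13.1% of all genes, with a median of 0.16 beside -0.05 over all genes. Those that rose included Rap1a (0.63 ± 0.11), Rap1b (0.53 ± 0.10) and the kindlin Fermt3 (0.51 ± 0.10), and Apbb1ip, which links Rap1 to talin, fell (-0.42 ± 0.09).

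Of 11 inhibitors of integrin activation 6 rose and none fell at 72 h after FP, beside 17.3% and 13.1% of all genes. Their median was 0.40 beside -0.05 over all genes. Whether this list differs from genes in general was not tested. Rap1gap2, which turns Rap1 off, rose by 2.01 ± 0.16, Flna, the filamin that competes for beta tails, by 0.93 ± 0.13, Dok2 by 0.72 ± 0.11 and Itgb1bp1 by 0.81 ± 0.16. After repeated FP, when 0.629% of all genes were called, Rap1gap2 was the 1 inhibitor called (1.48 ± 0.16, adjusted p = 0.00286). At 16 h 2 of 11 rose and 1 fell, beside 14.4% and 14.3% of all genes, with Flna at 0.57 ± 0.08 and Tagap at -0.86 ± 0.12. Among focal adhesion partners 5 of 22 rose and 4 fell at 72 h, beside 17.3% and 13.1% of all genes, with Actn1 at -0.91 ± 0.11, Cd47 at 0.66 ± 0.08, Actn4 at 0.83 ± 0.13 and Ptk2 at -1.03 ± 0.17. At 16 h 3 of 21 rose and 6 fell, beside 14.4% and 14.3% of all genes, with Cd9 at -0.92 ± 0.13 and Actn1 at -0.63 ± 0.09.

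Of the genes of integrin ligands, Lama5, a laminin alpha chain and thus of the family that alpha6 binds, rose in several comparisons. It rose by 1.42 ± 0.20 after FP and by 1.98 ± 0.20 after IL-2 at 1.5 h, by 2.27 ± 0.17 at 16 h and by 2.82 ± 0.24 at 72 h after FP. With IL-2 in vitro the rise was 3.23 ± 0.08. Lamc1, a laminin gamma chain, rose with it after FP, by 0.80 ± 0.13 at 16 h and by 1.29 ± 0.12 at 72 h. At 72 h 3 of 13 ligand genes rose and 2 fell, beside 17.3% and 13.1% of all genes. The 2 that fell were Vcam1 (-4.84 ± 0.55) and F11r (-3.16 ± 0.44), and Vcam1 is in the myeloid marker list as well.

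The TGF-beta genes around alphav and beta8 moved in both directions. Lrrc32, which encodes GARP, the protein that holds latent TGF-beta on the Treg surface for alphav beta8, rose by 2.057 ± 0.12 after FP and 2.21 ± 0.12 after IL-2 at 1.5 h. After FP it was also up by 2.04 ± 0.09 at 16 h, when 3 of 17 genes of the list rose and 4 fell, and by 1.14 ± 0.13 at 72 h, when 5 rose and 4 fell. Of all genes 14.4% rose and 14.3% fell at 16 h, and 17.3% rose and 13.1% fell at 72 h. At 72 h Tgfb3 (2.65 ± 0.23), Furin, which cleaves the TGF-beta precursor (0.86 ± 0.09), and Smad3 (0.60 ± 0.08) rose as well. Itgb8 and Lrrc32 thus changed in opposite directions at 16 and 72 h after FP. In vitro 6 of 16 rose and 4 fell, beside 7.41% and 6.54% of all genes, with Tgfbr1 at 0.89 ± 0.04, Furin at 0.72 ± 0.03 and Lrrc32 at 0.65 ± 0.04.

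Genes of lymph node entry and exit were set beside the chains. At 16 h after FP S1pr1, the egress receptor (-0.71 ± 0.08), and Ccr7, which guides cells into lymph nodes (-0.43 ± 0.10), fell. At 72 h Selplg, the P-selectin ligand PSGL-1, rose (0.95 ± 0.15), and Ccr7 (-0.78 ± 0.15) and Cd44 (-0.48 ± 0.11) fell. In vitro, with IL-2 against PBS, Selplg rose (0.92 ± 0.04), and Ccr7 (-0.69 ± 0.04) and S1pr1 (-0.33 ± 0.04) fell. At 1.5 h in the animal Ccr7 was lower after IL-2 (-0.73 ± 0.14, adjusted p = 0.00198), and after FP it did not pass (-0.52 ± 0.14, adjusted p = 0.0258). Of all genes 14.4% rose and 14.3% fell at 16 h after FP, and 17.3% rose and 13.1% fell at 72 h. In vitro 7.41% rose and 6.54% fell.

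The genes whose changes were most like those of a chain over the 13 comparisons with PBS were found among 8510 genes, by the mean absolute difference of log2 changes. Itgae was nearest Cxcr3, a chemokine receptor, at 0.15, and Xdh at 0.15, beside a median of 0.51 over the genes searched. Itgb7 was nearest Gnai2, a G protein subunit (0.083), and Hadh (0.089, median 0.35), and Itga6 was nearest Ripk1 (0.093) and Mpzl3 (0.11, median 0.43). Itga4 was nearest Spata6 and Slc4a7 (0.16 each, median 0.53), and Itgb8 was nearest Fam160a1 and Baz2b (both 0.17, median 0.46). Itgav was nearest Ric1 and Mapre2, Itgb1 Cnot6l and Lamp2, Itgal Ssh1 and Arid1b, and Itgb2 Rnf40. Comparisons of one table share PBS libraries, so the 13 points are not independent. The named genes were picked for the smallest differences among 8510, so they lie below the median by selection.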

How the data were processed

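The authors deposited 8 tables of raw counts per gene. Per the submitters' processing notes, reads were aligned to GRCm38 with STAR 2.5.0 and assigned by featureCounts 1.5.0 to GENCODE M13 genes. The tables hold no gene that is over 0.5 CPM in fewer than 3 of its columns. RNA came from TRIzol and column purification and RiboErase libraries read on a NextSeq 500, per the labels' protocols. Whether counting used strand is not stated.

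The 91 samples held 75 libraries, since 16 were second runs of a library. Runs were summed (chi-square per degree of freedom 1.03 to 1.08 between them). The injected molecule of 2 libraries at 4 h contradicts their title, so they entered no comparison. The treatment text is the same for all samples, so times came from the titles.

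Each table was fitted alone with edgeR 4.0.16 (R 4.3.3, limma 3.58.1): TMM factors, filterByExpr, 1 mean per group and a 2-sided quasi-likelihood F test, with Benjamini-Hochberg adjustment over all genes tested (16629 to 18624 per table). Called means an adjusted p below 0.01, the threshold the authors name. SE was taken as the size of the log2 change over the root of F, and 95% intervals use the t quantile. Differences between tables were tested as interactions in a joint fit in which each table kept its own PBS libraries. The scripts were tested on simulated data. Symbols, coordinates and exon lengths are from GENCODE M21 and promoters from RefSeq.

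Numbers shared by libraries of 2 groups were taken to pair them where each correlation of their deviations from the group means was over 0.1. This held for IL-2 with PBS (0.48 to 0.90) and FP with PBS (0.16 to 0.85) at 4 h, and for IL-2 with PBS (0.50 to 0.63) and FP with IL-2 (0.15 to 0.23) at 72 h. The labels do not state what a number marks, and at 4 h the tags in the column names group some libraries otherwise than the numbers do.

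The chains and gene lists were chosen with earlier results of these data known. All 9 chains are described. Of each other list up to 4 genes of smallest p are named per comparison, and for each chain the 2 genes nearest in log2 change, among genes of at least 5 CPM in every table. A few genes of these lists are not reported here. Alternatives were DESeq2 1.42.0, its size factors in edgeR, no low-count filter, only the compared groups, the replicate block, lane, first run only, leaving out each library, and 2 chosen after the data were seen: the long-transcript score as a covariate and, at 4 h, a tag in the column names as a block.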

Additional observations from a re-analysis of the deposited data

Results flagged for a closer look

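Each of the 9 chains was examined in 10 groups of 4 libraries. In 4 of these 90 sets of values, which share libraries between chains, 1 library stood apart from the other 3 by Dixon's criterion, which flags about 1 group in 20 by chance. At 1.5 h Itga6 was at 413.9 CPM in PBS replicate 3, the highest of its group, with the next at 373.7 CPM. At 4 h Itga4 was at 359.1 CPM in IL-2 replicate 1, the lowest of its group, with the next at 498.3 CPM. That library also had the lowest long-transcript score of its table (-0.56). At 72 h Itga6 was at 418.5 CPM in FP replicate 4, the lowest of its group, with the next at 574.1 CPM. At 168 h Itgav was at 199.0 CPM in FP replicate 3, the highest of its group, with the next at 165.7 CPM.

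The effect of FP over PBS differed between times, on the log2 scale. At 72 h minus 16 h the difference was 0.5823 for Itga4 (edgeR adjusted p = 0.00617), 1.174 for Itgae (adjusted p = 3.2e-05) and 0.76 for Itgb7 (adjusted p = 0.000645). At 168 h minus 72 h it was 0.8364 for Itga4 (adjusted p = 0.00421). The effect of IL-2 over PBS in vitro minus that at 1.5 h in the animal was 0.8703 for Itga4 (adjusted p = 8.78e-05) and 1.051 for Itgb8 (adjusted p = 0.00366). Each of these compares tables made from different libraries, so time or culture and table cannot be told apart.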

How the results depend on the processing

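Of 2790 log2 changes of single chains recomputed under the alternatives, 2704 stayed on their side of the threshold, 35 lost a call and 51 gained one. No called value reversed. Among uncalled values 145 changed sign, the largest of these having a log2 change of 0.318 in size.

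Counts of called chains moved by over 1.5 times in these cases. For FP over PBS at 4 h the 0 became 1 with DESeq2, 1 with the replicate block, 2 with the column tag as a block and 4 with the long-transcript score. For IL-2 over PBS at 4 h it became 1 with DESeq2, with the tag and with the score. With the score the 4 calls of FP at 72 h became 1 over PBS and 0 over IL-2, where FP and the score could hardly be told apart. At 168 h the 0 became 2 with DESeq2, 1 with the replicate block and 1 with the score, and for high-dose IL-2 it became 2 with DESeq2 and 5 with the score. FP at 168 h minus 72 h gave 3 with DESeq2, in place of 1. Smaller moves were 7 in place of 5 for FP over IL-2 at 16 h with only the compared groups and 4 with the score, 3 in place of 4 for FP over PBS at 16 h without the low-count filter, and 3 in place of 2 for IL-2 at 1.5 h with the score (Itgae at -0.64, adjusted p = 0.00609). DESeq2 gave 5 in place of 4 for both FP comparisons at 72 h (Itgb1 over PBS, and Itga4 over IL-2 at -0.44, adjusted p = 0.00828, which first runs alone also called), 4 in place of 3 for 72 h minus 16 h (Itgb1) and 3 in place of 2 for in vitro minus 1.5 h (Itga6). The replicate block gave 6 in place of 4 for FP over IL-2 at 72 h. The cause was not tested. Counts over all genes are given below for some of these settings only, and the other counts of chains cannot be read against them.

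Leaving out 1 library gave 2 to 3 called chains for IL-2 and 2 for FP at 1.5 h, 3 to 5 for FP over PBS and 4 to 5 over IL-2 at 16 h, 3 to 5 for both at 72 h, and 3 in vitro. For FP at 16 h minus 1.5 h it gave 0 to 1, at 72 h minus 16 h 2 to 4, at 168 h minus 72 h 0 to 3, and for in vitro minus 1.5 h 1 to 2. All other comparisons gave 0 throughout.

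Where numbers did not pair the libraries by the criterion used, the replicate block still raised the called chains of FP over PBS at 72 h to 6 (Itga4 at -0.48, adjusted p = 0.000708, and Itgb1 at 0.57, adjusted p = 0.00151, joined) and called Itgae at 168 h (0.59, adjusted p = 0.00581). Of the 4 paired comparisons it changed calls of chains in FP over PBS at 4 h and FP over IL-2 at 72 h, as given, and in no other. It gave 996 called genes for FP and 510 for IL-2 at 4 h, in place of 161 and 115. Its counts over all genes at 72 h and 168 h are not given.

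Counts over all genes moved by over 1.5 times in 84 of 310 recomputed cases. DESeq2 gave 1688 for FP at 1.5 h in place of 1110, 1075 for FP and 774 for IL-2 at 4 h, 136 for IL-2 at 16 h in place of 61, 520 at 168 h in place of 210, 549 in the high-dose table in place of 0, 736, 143 and 547 for repeated FP, single FP and repeated over single FP in place of 113, 2 and 105, and 2305 for FP at 168 h minus 72 h in place of 1480. With the score 1439 were called for FP over PBS at 72 h in place of 5662, 1177 over IL-2 in place of 5738, 2514 for FP and 2019 for IL-2 at 4 h, and 2616 in the high-dose table. At 4 h leaving out PBS replicate 2 left 10 for FP and 1 for IL-2, and only the compared groups left 0 for FP. With lane as a covariate the FP change at 4 h rests on 1 FP library, so no count is given for that fit. The coefficient of biological variation was 38.4% at 4 h and 40.7% in the high-dose table.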

Other observations

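In 2 libraries at 4 h the labels contradict each other, and they were put in no group. The library titled FP replicate 3 held 13490810 counted reads and had, in CPM of its total, 516 for Itga4, 526 for Itga6, 36.8 for Itgae, 376 for Itgb7, 335 for Itgb1 and 64.0 for Itgb8. The library titled PBS replicate 3 held 16072489 counted reads and had 1136 for Itga4, 340 for Itga6, 85.2 for Itgae, 429 for Itgb7, 449 for Itgb1 and 130.0 for Itgb8 on the same scale. Itgal, Itgav and Itgb2 were at 609, 128 and 362 in the first and at 780, 180 and 426 in the second.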
